A study of Homo sapiens with 9 samples.

Results

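The genes described here encode SR proteins, heterogeneous nuclear ribonucleoproteins (hnRNPs) and core spliceosome factors. They were chosen by name: protein-coding genes whose GENCODE symbol is SRSF plus a number, begins with HNRNP, SF3A or SF3B, or is U2AF1, U2AF2, SF1, SRRM1, SRRM2, PTBP1, TRA2A or TRA2B. The rule used no measured value and found 56 genes among the 58096 gene identifiers counted. Poly(A)-selected RNA was sequenced from ALL-SIL, a human T-cell acute lymphoblastic leukemia line in which a translocation drives the homeobox gene TLX1. All 9 libraries came from electroporated cells: 3 carry the label TLX1 siRNA1, 3 carry TLX1 siRNA2, and 3 carry a non-targeting control siRNA (NTC), each numbered 1 to 3. The sources used here give neither the siRNA sequences nor the time of harvest. Nor do they tell separate cultures from repeat libraries of 1 culture, so each p-value reflects variation among these libraries that could be technical.

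The libraries held between 58305492 and 99524663 counts on genes. TLX1, the labelled target, went against its label: it had 406, 457 and 387 CPM (counts scaled to library size with TMM factors) in the libraries labelled siRNA1, 198, 231 and 179 CPM in those labelled siRNA2, and 184, 167 and 183 CPM in NTC libraries. The log2 difference from NTC was 1.23 (SE 0.10, edgeR adjusted p = 0.000449) in siRNA1 libraries and 0.19 (SE 0.10, adjusted p = 1.00) in siRNA2 libraries, so no direction below can be read as an effect of less TLX1. The sources used here do not settle whether a label is wrong. Exchanged labels would turn the sign of the comparison between them and change which groups the other label comparisons set side by side. Most T-lineage markers were high, led by CD3D, CD3E and CD7, with a median of 231 CPM over 12 genes, TLX1 among them. CD2 was low, with a mean of 3.62 CPM (2.33 to 5.79 CPM over the libraries). Of the 4 B-lineage markers 3 passed the filter on low counts, and CD79A was the highest at 13.8 CPM; the summed B-lineage level was 11.03 to 23.2 CPM per library. The summed myeloid, erythroid and epithelial or fibroblast marker levels stayed at or below 0.934, 0.0871 and 0.205 CPM per library. In a bulk sample, fewer cells that express a gene and less of its RNA per cell cannot be told apart.

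Splicing removes introns in steps carried out by the spliceosome, a machine of small nuclear RNAs and proteins. SF1 binds the branch point, U2AF2 binds the polypyrimidine tract and U2AF1 reads the AG at the 3′ end of the intron; the SF3A and SF3B complexes then hold the U2 snRNP on the branch point. SR proteins bind exonic enhancers through RNA recognition motifs and recruit these factors through domains rich in arginine and serine, while hnRNPs coat nascent transcripts and often repress or redirect splice site choice. Many of these genes hold conserved exons or introns whose splicing lowers their own mRNA. In T cells the family is known for splicing of CD45, in which HNRNPLL favours skipping of the variable exons after activation.

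The splicing factors were among the abundant mRNAs of these cells, and their levels were steady from library to library. Together the 56 genes took 2.54% ± 0.0138 of gene counts in siRNA1 libraries, 2.58% ± 0.0362 in siRNA2 libraries and 2.59% ± 0.0241 in NTC libraries (SD, n = 3 each). The hnRNP genes alone took 1.57% ± 0.0256 in siRNA1 libraries, 1.60% ± 0.0353 in siRNA2 libraries and 1.61% ± 0.0163 in NTC libraries. Per length of exon, 52 tested genes had a median of 222 TPM (counts per length of exon, scaled to the library, computed here from the deposited counts), against 21.5 TPM for all 12409 protein-coding genes tested. Of the 56, 41 exceeded 100 TPM and 47 reached 40 TPM, while 8 lay under 2 TPM. The coefficient of variation of CPM over the 9 libraries had a median of 6.82% for the 52 genes and 14.4% for all 18554 genes tested, and 39 of the 52 stayed below 10%. The splicing genes are also more abundant, which lowers the counting part of this variation.

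HNRNPA1, a repressor that binds exonic and intronic silencers, was the highest per length, at 1404 ± 70.7 TPM (SD over 9 libraries). Its close relative HNRNPA2B1 followed with 1041 ± 35.0 TPM and had the lowest variation of the genes at 1 CPM or more, 3.27%. HNRNPK, which binds cytosine-rich RNA, had 807 ± 62.7 TPM. SRSF2, an SR protein that selects exons from nuclear speckles, had 734 ± 70.8 TPM, and HNRNPF, which binds G-tracts, had 686 ± 55.8 TPM. SRSF2 and HNRNPF overlapped within their spread, as did HNRNPK and SRSF2; HNRNPA1 and HNRNPA2B1 stood apart.

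Among the 12 SR protein genes the means ran down in the order SRSF2, SRSF1 at 560 TPM, SRSF7 at 408, SRSF3 at 369.97, SRSF5 at 362, SRSF6 at 324, SRSF11 at 228, SRSF10 at 202, SRSF4 at 94.3 and SRSF9 at 91.9 TPM. The places of SRSF1, SRSF2 and SRSF9 in this order are uncertain, because they share exon bases with other genes (given below). SRSF8, a gene related to SRSF2, had 0.182 TPM, and SRSF12 had 0.0561 TPM from 50 counts in all. The SR-like genes were SRRM2, a large scaffold of nuclear speckles, at 354 TPM; TRA2B at 149 TPM and TRA2A at 116 TPM, a pair of exon activators; and SRRM1, a splicing coactivator, at 74.9 TPM. The 9 SF3A and SF3B genes ranged from 105 TPM for SF3B3, a scaffold subunit, to 594 TPM for the small subunit SF3B5, with SF3B1, the subunit that clamps the branch point and is mutated in myeloid disease, at 271 TPM. Of the early recognition factors, U2AF2 had 289.7 TPM and SF1 had 219.96 TPM, whereas U2AF1 was listed at 1.70 TPM.

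The lower end of the hnRNP genes held HNRNPLL at 43.1 TPM, HNRNPA1L2 at 41.5 TPM and HNRNPA1P48 at 26.0 TPM, then HNRNPCL1 at 0.527 TPM and the readthrough gene HNRNPUL2-BSCL2 at 0.192 TPM. HNRNPCL2, HNRNPCL3 and HNRNPCL4 held 23, 1 and 1 counts over all libraries. These 3 and SRSF12 did not pass the filter on low counts, so 52 of the 56 were tested. PTBP1, the polypyrimidine tract repressor counted here with the hnRNPs, had 365 TPM. The plot of levels shows the 8 genes under 2 TPM well below the rest, and it places SRSF8, SRSF12 and the HNRNPCL genes at the bottom of otherwise abundant classes.

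**Figure D1:**
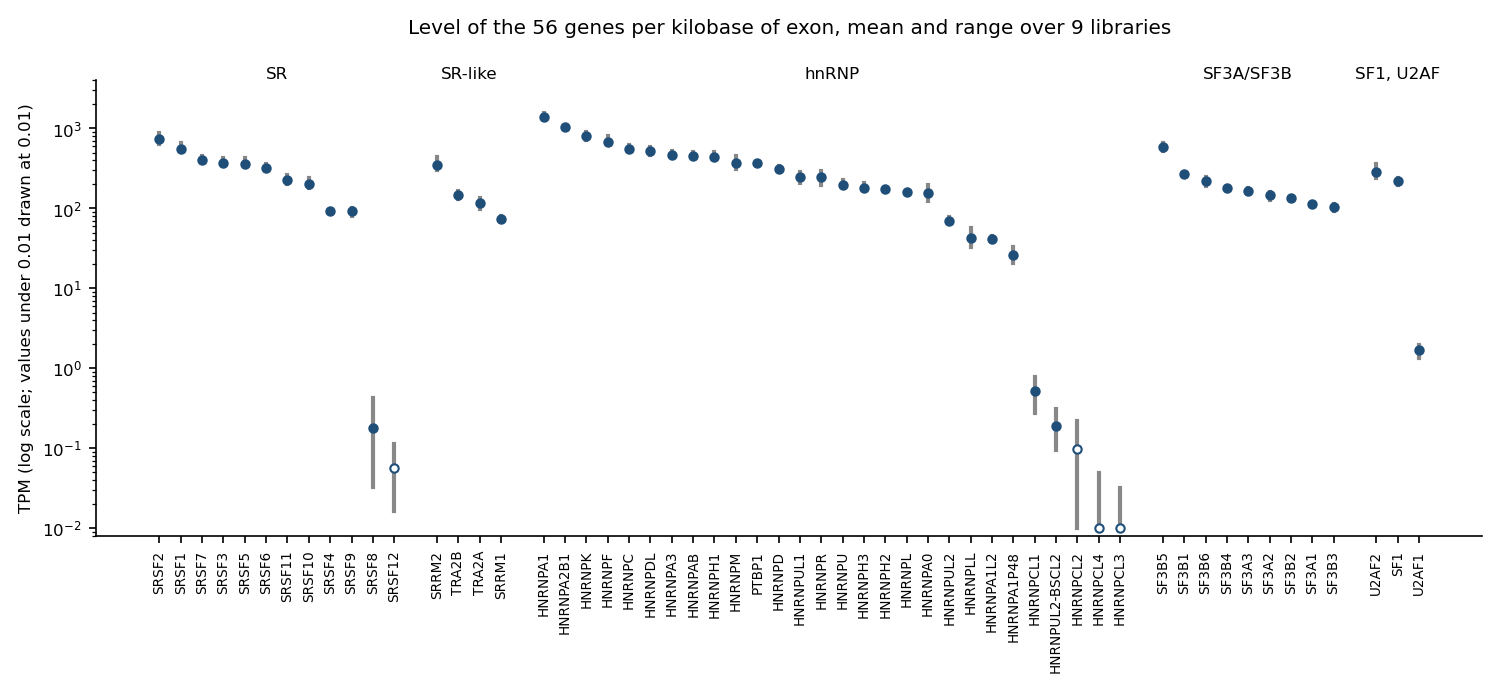
Mean TPM of each of the 56 genes on a log axis, grouped by class and sorted within it, with vertical bars from the lowest to the highest of 9 libraries and open circles for the 4 genes not tested. HNRNPA1 is highest at 1404 TPM, and 8 genes lie under 2 TPM.

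The value of U2AF1 has to be read beside that of a second copy. U2AF1 (chr21:43092956-43107587, minus strand, GRCh38) and U2AF1L5 (chr21:6484623-6499261, minus strand) are annotated on the same chromosome, and their 720 coding bases are identical. The first 60 coding bases of each, read from the genome across a splice junction, show that a read from this stretch cannot be placed:

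U2AF1: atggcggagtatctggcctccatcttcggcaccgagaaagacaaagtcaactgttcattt

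U2AF1L5: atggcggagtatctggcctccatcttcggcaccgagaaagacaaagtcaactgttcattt

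U2AF1 held 3848 counts and U2AF1L5 held 3947 counts over the 9 libraries, and the sum of both was 10.6 ± 0.852 CPM (SD, n = 9). Reads that matched more than 1 place made up 4.90% to 5.44% of each library and were not assigned to genes, so the level of U2AF1 mRNA is uncertain here and its contrasts below rest on the few reads that could be placed. This gene's level is therefore not comparable with that of U2AF2.

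HNRNPA1 has close copies that are annotated as protein coding and carry HNRNP symbols. Over 960 coding bases HNRNPA1L2 matched HNRNPA1 at 98.4%, with 15 differences, and HNRNPA1P48 differed at 6 positions beside 135 gap columns. The same 60 bases are shown for the 3 genes, with bases that differ between HNRNPA1 and HNRNPA1L2 in capitals in those copies, because a read from here is assigned by at most a few of them:

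HNRNPA1: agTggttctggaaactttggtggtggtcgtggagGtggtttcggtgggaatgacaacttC

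HNRNPA1L2: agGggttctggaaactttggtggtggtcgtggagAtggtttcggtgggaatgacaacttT

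HNRNPA1P48: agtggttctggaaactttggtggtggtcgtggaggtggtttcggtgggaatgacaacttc

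The stretches lie at chr12:54282578-54282637, chr13:52643081-52643140 and chr16:51646406-51646465 on the plus strand of GRCh38. HNRNPA1P48 carries the same letters as HNRNPA1 here. Pseudogenes named after HNRNPC took 9.62% of the counts of HNRNPC and those pseudogenes combined, and those named after HNRNPA1 took 3.01%. HNRNPC matched HNRNPCL1 at 90.4% and HNRNPH1 matched HNRNPH2 at 87.6%. Genes that share exon bases with neighbours are also uncertain. HNRNPUL2-BSCL2 shares 100% of its exon bases with HNRNPUL2 and BSCL2 on the same strand, and HNRNPUL2 shares 44.1% with that readthrough gene. SRSF9 shares 46.2% with GATC on the opposite strand, which the unstranded counts cannot tell apart, and SRSF1 and SRSF2 share 60.7% and 36.7% with genes on both strands.

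The first comparison set libraries labelled siRNA1 against NTC libraries. Most splicing factor mRNAs had slightly lower values in siRNA1 libraries, and none passed the test unless the replicate number was taken into account. By edgeR's quasi-likelihood test with Benjamini-Hochberg adjustment over all 18554 genes, 0 of the 52 had an adjusted p under 0.05, where 1.28% of all genes did (0.469% higher and 0.814% lower). At an unadjusted p under 0.05 there were 4 of the 52 and 1903 of all genes; DESeq2 called 1 (HNRNPUL1) and 553 of all genes, and limma-voom called 0 and 230. Libraries with the same number moved together, and with the number as a block 4 of 52 were lower (7.69%), against 5.93% of all genes, and 0 were higher, against 5.48%; in either direction 11.4% of all genes passed.

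In log2 terms 42 of the 52 (80.8%) lay below 0, against 48.6% of all genes tested, and the median was −0.08, against 0.01. By class, 8 of 11 SR genes, 2 of 4 SR-like genes, 21 of 25 hnRNP genes, 9 of 9 SF3A and SF3B genes and 2 of 3 of SF1, U2AF1 and U2AF2 lay below 0. In 28 of the 52 (53.8%) the siRNA1 library was below the NTC library in each of the 3 same-number pairs, against 22.8% of all genes. The opposite held for 3 genes (5.77%, against 23.1%). The groups of libraries did not overlap for 15 genes that were lower (28.8%, against 8.27% of all genes) and for SRSF5 alone among those that were higher (1.92%, against 7.57%). These counts are descriptions of a list whose genes are not independent of each other. The 49 genes at 1 CPM or more had median log2 ratios of −0.07, −0.03 and −0.11 in pairs 1, 2 and 3, with 40, 32 and 40 of them below 0.

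**Figure D2:**
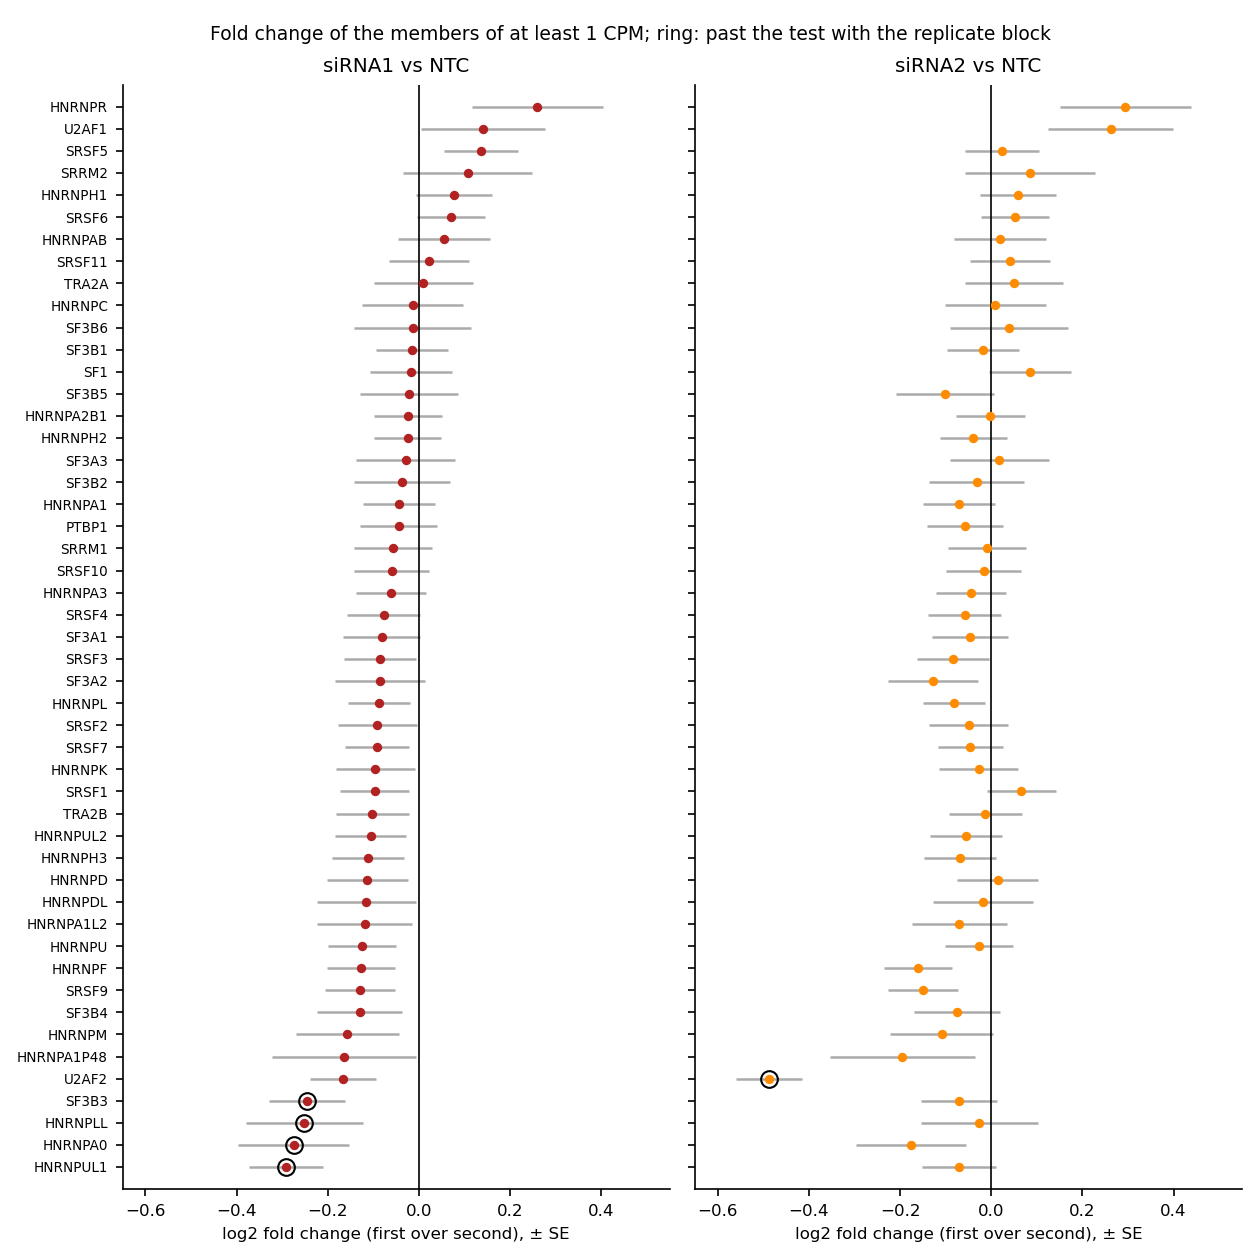
Log2 fold changes (horizontal axis, with SE bars) of the 49 genes at 1 CPM or more, for siRNA1 vs NTC on the left and siRNA2 vs NTC on the right, sorted by the left panel; rings mark genes past the test with the replicate block. The left panel runs from −0.29 for HNRNPUL1 to 0.26 for HNRNPR, and in the right panel U2AF2 stands apart at −0.49.

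HNRNPUL1 (chr19:41262496-41307598, plus strand), an hnRNP U relative that binds RNA and has a known role at DNA breaks, had 419, 385 and 403 CPM in siRNA1 libraries and 509.6, 467 and 501 CPM in NTC libraries. The groups did not overlap. The log2 fold change was −0.29 (SE 0.08, adjusted p = 0.148 in edgeR; 0.0336 in DESeq2), and with the replicate block it fell with an adjusted p of 0.00358. With the block and 1 library left out at a time the adjusted p ran between 0.000976 and 0.0420, and without the 3 replicate 1 libraries it was 0.0561.

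SF3B3 (chr16:70523788-70577670, plus strand) had 338, 332 and 312 CPM in siRNA1 libraries and 414, 384 and 367 CPM in NTC libraries, again with no overlap. Its log2 fold change was −0.25 (SE 0.08, adjusted p = 0.273), and with the block the adjusted p was 0.00920. That call was lost when NTC replicate 1, siRNA1 replicate 1 or siRNA1 replicate 2 was left out (adjusted p = 0.0996, 0.0865 and 0.0676), and it was 0.239 without the replicate 1 libraries. SF3B3 is the largest difference in its class: all 9 SF3A and SF3B genes lay below 0, with a median of −0.04 and a range of −0.25 to −0.01, and SF3B1 was at −0.01.

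HNRNPA0 (chr5:137745651-137754376, minus strand), which binds AU-rich elements of inflammatory mRNAs, had 311, 363 and 352 CPM in siRNA1 libraries and 345, 466 and 430.2 CPM in NTC libraries. The groups overlapped through NTC replicate 1, yet each siRNA1 library lay below the NTC library of its own number. The log2 fold change was −0.27 (SE 0.12, adjusted p = 0.459; with the block SE 0.06, adjusted p = 0.00594), and the blocked call was lost without siRNA1 replicate 2 (adjusted p = 0.0922).

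HNRNPLL (chr2:38561978-38603586, minus strand), the CD45 splicing repressor, had 65.4, 55.5 and 67.7 CPM in siRNA1 libraries and 77.5, 66.3 and 80.7 CPM in NTC libraries. Replicate 2 was the lowest under both labels, and the groups overlapped. The log2 fold change was −0.25 (SE 0.13, adjusted p = 0.552; with the block 0.0136), and the blocked call was lost without NTC replicate 1, siRNA1 replicate 1 or siRNA1 replicate 3 (adjusted p = 0.0890, 0.0602 and 0.100) and without the replicate 1 libraries (0.1499).

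The most studied members had small differences, and none of them passed with or without the block. SRSF1, SRSF2 and SRSF3, which activate exons, were at −0.10, −0.09 and −0.09. HNRNPA1 was at −0.04, HNRNPK at −0.10, PTBP1 at −0.04 and U2AF1 at 0.14, with the limit on U2AF1 given above. SRSF5, another SR protein, had 565, 536 and 603 CPM in siRNA1 libraries and 515, 509.9 and 524 CPM in NTC libraries, a log2 difference of 0.14 (SE 0.08, adjusted p = 0.647). HNRNPCL1 had the lowest value of all, −0.41 (SE 0.35), from 10 to 20 counts in siRNA1 libraries and 10 to 23 counts in NTC libraries, and HNRNPUL2-BSCL2 was at 0.14 (SE 0.41).

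**Figure D3:**
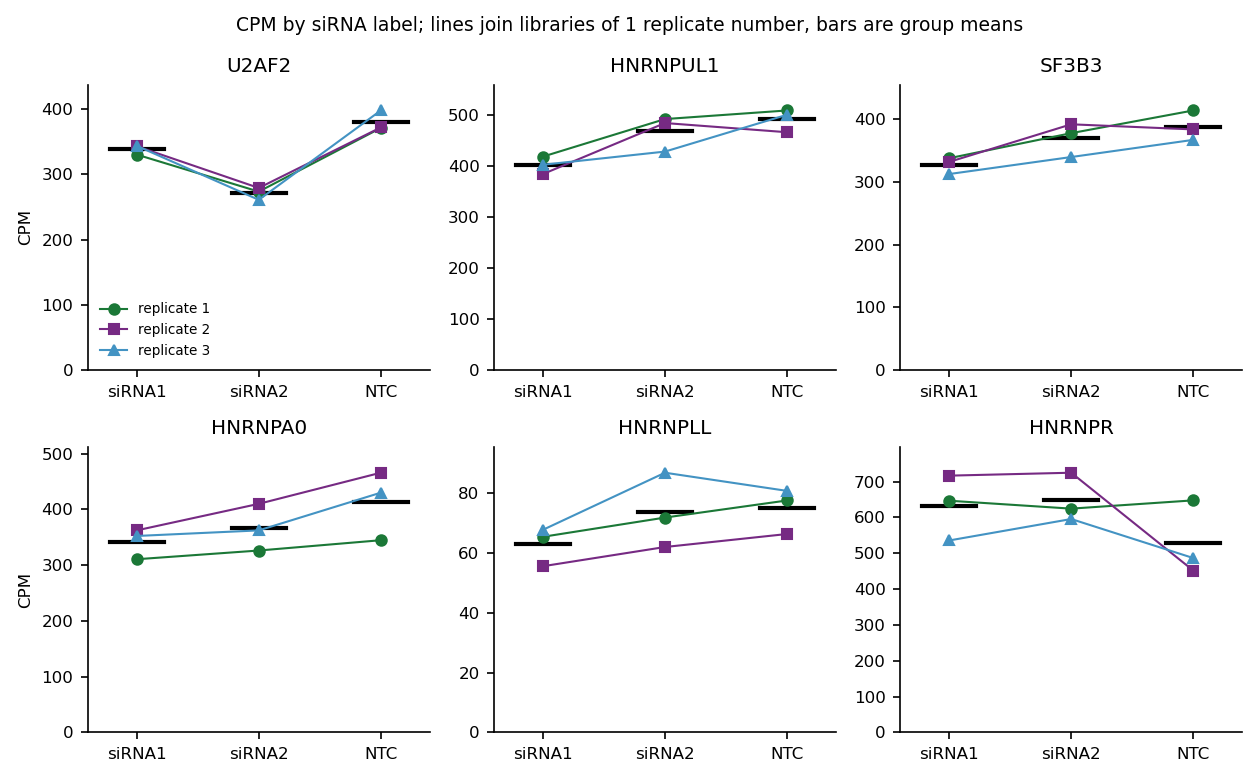
CPM of 6 genes in each library, with siRNA1, siRNA2 and NTC from left to right, markers and lines joining libraries of the same replicate number, and horizontal bars for group means. U2AF2 sits at 261 to 279 CPM in siRNA2 libraries, below the 330.2 to 344 CPM of siRNA1 libraries and the 371 to 398 CPM of NTC libraries.

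The second comparison, libraries labelled siRNA2 against NTC libraries, turned on a single splicing factor. U2AF2 (chr19:55654146-55674715, plus strand) had 274, 279 and 261 CPM in siRNA2 libraries and 371, 372 and 398 CPM in NTC libraries. Libraries labelled siRNA1 lay between them with 330.2, 343 and 344 CPM, and the 3 labels did not overlap. The siRNA2 mean was 271 ± 9.31 CPM and the NTC mean 380.2 ± 15.3 CPM (SD, n = 3 each), a log2 difference of −0.49 (SE 0.07) or 1.40-fold lower. Its unadjusted p, 2.19e-05, was the smallest of the 18554 genes, and the adjusted p was 0.407.

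With the replicate block U2AF2 was lower with an adjusted p of 0.000674, and in that fit it stayed past the threshold with each of the 9 libraries left out in turn (2.17e-05 to 0.0213) and without all replicate 1 libraries (0.000517). Without the block the adjusted p of U2AF2 passed in only 2 of 18 alternatives: without the filter on low counts (0.00663) and in DESeq2 (1.28e-06). It was 1.00 when only the 2 groups compared were fitted. In siRNA1 libraries U2AF2 was at −0.17 from NTC (SE 0.07, adjusted p = 0.448). With the block and without siRNA2 replicate 3 that difference passed (adjusted p = 0.024).

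Across the list, 0 of 52 passed without the block, where 0 of all genes did (0%). At an unadjusted p under 0.05 there was 1 of the 52 and 392 of all genes; DESeq2 called 1 and 4, and limma-voom 0 and 0. With the block U2AF2 alone passed, 1.92% of the 52, against 0.151% of all genes (0.0647% lower and 0.0862% higher). In log2 terms 35 of 52 lay below 0 with a median of −0.03, against a median of −0.00 for all genes. The siRNA2 library was the lower in all 3 pairs for 13 of 52 (25.0%, against 13.6% of all genes) and the higher in all 3 for 2 (3.85%, against 12.3%). The groups did not overlap for 5 genes that were lower, HNRNPCL1, HNRNPF, SRSF9, HNRNPL and U2AF2 (9.62%, against 2.72% of all genes), and for U2AF1, which was higher (1.92%, against 2.86%). In pair 1 the 49 genes at 1 CPM or more had a median log2 ratio of −0.08 with 43 below 0, whereas pairs 2 and 3 had medians of 0.00 and −0.02 with 24 and 26 below 0. Both comparisons with NTC use the same 3 NTC libraries, so their values are not independent of each other.

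U2AF1, the partner of U2AF2, had 5.98, 5.54 and 5.55 CPM in siRNA2 libraries and 4.82, 5.37 and 4.03 CPM in NTC libraries, a log2 difference of 0.26 (SE 0.14, adjusted p = 1.00). These are the reads that could be placed between U2AF1 and its identical copy, and U2AF1L5 itself was at 0.05 (SE 0.13, adjusted p = 1.00). SF1 was at 0.08, SRSF1 at 0.07, SRSF2 at −0.05, SRSF3 at −0.08, HNRNPA1 at −0.07, HNRNPK at −0.03, SF3B1 at −0.02 and PTBP1 at −0.06. HNRNPCL1 was at −0.66 (SE 0.38) from 6 to 12 counts in siRNA2 libraries, HNRNPA1P48 at −0.20 (SE 0.16) and HNRNPUL2-BSCL2 at 0.23 (SE 0.42).

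**Figure D4:**
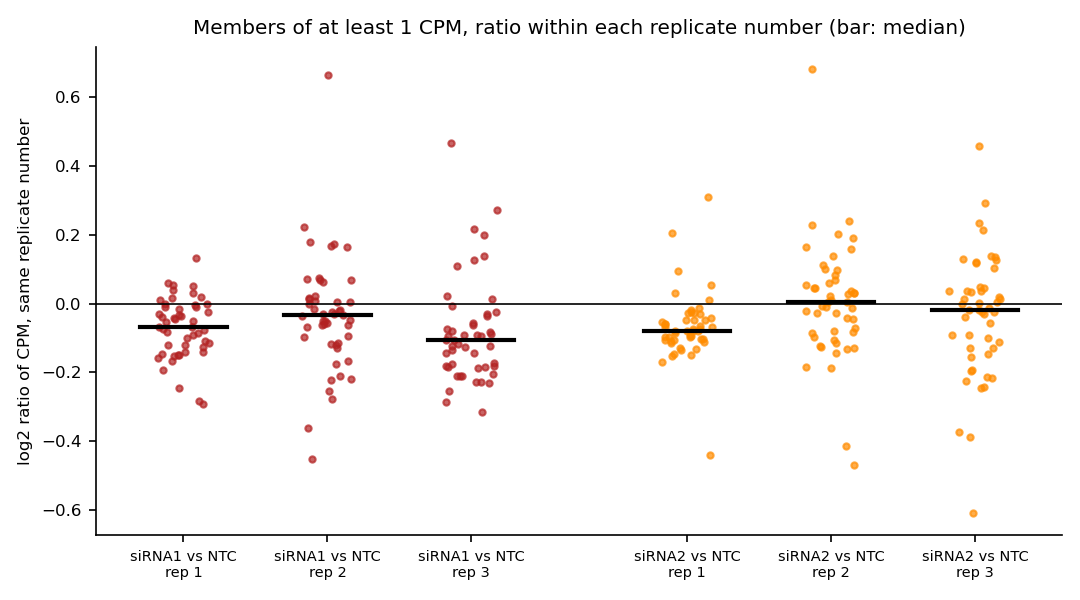
Log2 CPM ratios of the 49 genes at 1 CPM or more within each same-number pair, for siRNA1 over NTC and siRNA2 over NTC, one point per gene with the median as a line. The siRNA1 medians are −0.07, −0.03 and −0.11, and the siRNA2 medians −0.08, 0.00 and −0.02.

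HNRNPR, which binds mRNA in nucleus and cytoplasm, had the largest positive difference in both comparisons with NTC and the largest variation of the genes at 1 CPM or more, 15.8%. It had 647, 717 and 536 CPM in siRNA1 libraries, 625, 725 and 596 CPM in siRNA2 libraries and 648, 452 and 487 CPM in NTC libraries. NTC replicate 1 was as high as the siRNA libraries of that number, and the other NTC libraries were lower than all others. The log2 differences were 0.26 in siRNA1 libraries (SE 0.14, adjusted p = 0.599) and 0.29 in siRNA2 libraries (SE 0.14, adjusted p = 1.00), and with the block the adjusted p values were 0.0824 and 0.280. With the block and without NTC replicate 1 both passed, at 0.42 (adjusted p = 0.00229) and 0.46 (adjusted p = 0.00821), and so did both without the 3 replicate 1 libraries (adjusted p = 0.00345 and 0.00191) and without siRNA2 replicate 1 (0.0290 and 0.0387). Without siRNA2 replicate 2 the difference in siRNA1 libraries passed as well (adjusted p = 0.0377).

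Between the siRNA labels, 0 of 52 passed where 1.08% of all genes did (0.345% higher and 0.738% lower). At an unadjusted p under 0.05 there were 2 of the 52 and 1863 of all genes; DESeq2 called 1 and 522, and limma-voom 0 and 188. U2AF2 was higher in siRNA1 libraries than in siRNA2 libraries by 0.32 in log2 (SE 0.07, adjusted p = 0.0647), and with the block the adjusted p was 0.00104. It passed in all 9 blocked fits that left out a library, between 0.000361 and 0.0124. With the block HNRNPUL1 and HNRNPLL were lower in siRNA1 libraries, both at −0.22 (adjusted p = 0.0290 and 0.0355), so 3 of 52 passed (5.77%) against 10.6% of all genes (5.29% higher and 5.27% lower). Each of these 2 passed in 4 of the 9 blocked fits that left out a library.

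HNRNPUL1 had 419, 385 and 403 CPM in siRNA1 libraries, against 493, 485 and 429 CPM in siRNA2 libraries. HNRNPLL had 65.4, 55.5 and 67.7 CPM in siRNA1 libraries, against 71.8, 61.9 and 86.8 CPM in siRNA2 libraries. The first pair of groups did not overlap and the second did. The median of the 52 was −0.04, against 0.01 for all genes, and 36 of 52 lay below 0. The groups did not overlap for HNRNPU, SF3B3, SRSF1 and HNRNPUL1, which were lower (7.69%, against 7.23% of all genes), and for U2AF2, which was higher (1.92%, against 7.19%). SRSF1 was at −0.16, SRSF2 at −0.04, HNRNPA1 at 0.03, HNRNPK at −0.07, PTBP1 at 0.01 and U2AF1 at −0.12, and SRSF3 and SF3B1 were at −0.00 and 0.00. SRSF8 was at −0.30 (SE 0.90), HNRNPCL1 at 0.25 (SE 0.39) and SRSF5 at 0.11 (SE 0.08).

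In fits with both label and replicate number as terms, 10 of the 52 splicing genes passed for replicate 1 against replicates 2 and 3. For replicate 2 against replicate 3, 7 passed, and between siRNA labels 4, 1 and 3 did. Of all genes, 21.3% and 20.6% passed between replicate numbers, and 11.4%, 0.151% and 10.6% between labels. What the replicate numbers mark is not given in the sources used here, and each number holds 1 library of each label. In a fit with the label as a term, 10 of 52 differed between replicate 1 libraries and those of replicates 2 and 3 (19.2%), a share near the 21.3% of all genes. Of these 10, 6 were higher and 4 lower in replicate 1, against 10.9% and 10.4% of all genes. The libraries did not overlap for 6 higher genes (11.5%, against 6.4% of all genes) and 3 lower ones (5.77%, against 6.2%). These counts include SRSF8, among the 10, the 6 called higher and the 6 higher without overlap. SRSF8 passed the filter on low counts through its replicate 1 libraries, so its part in them is no support for the list. The mitochondrial share of counts was 5.40% to 5.83% in replicate 1 libraries, 4.48% to 5.58% in replicate 2 and 4.24% to 4.68% in replicate 3. All 3 B-lineage markers that passed the filter were higher in replicate 1, CD79A by 0.66 in log2 (18.3 CPM, against 11.6 CPM); the part of these in the differences below was not tested.

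SRRM2 (chr16:2752329-2772538, plus strand) rose in replicate 1, with 1457, 1623 and 1407 CPM in the siRNA1, siRNA2 and NTC libraries of that number, against 1057 to 1298 CPM in the other 6. The groups did not overlap, and the log2 difference was 0.31 (SE 0.06, adjusted p = 0.000699), past the threshold in all 17 alternatives. SRRM1, its partner in the splicing coactivator complex, was also higher, with 181 ± 7.53 CPM in replicate 1 and 163 ± 2.94 CPM in replicates 2 and 3 (SD, n = 3 and n = 6), a log2 difference of 0.15 (adjusted p = 0.0417); it passed in 7 of 17 alternatives, with an adjusted p of up to 0.302.

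HNRNPDL, a relative of the AU-rich element binder HNRNPD, had 846, 865 and 932 CPM in replicate 1, against 669.9 to 785 CPM in the others (log2 difference 0.23, SE 0.05, adjusted p = 0.00307). HNRNPD itself was at 0.15 (adjusted p = 0.0457), with overlap, and passed in 7 of 17 alternatives (adjusted p up to 0.327). SF3B6, the small SF3B subunit that contacts the branch point adenosine, had 83.2 ± 4.23 CPM in replicate 1 and 69.6 ± 5.78 CPM in the others, a difference of 0.26 (adjusted p = 0.00678). With TMM scaling all 9 SF3A and SF3B genes lay above 0 in this comparison, with a median of 0.09 and a range of 0.0057 to 0.26. SF3B6 alone passed, and of all genes tested 51.3% lay below 0.

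TRA2A (chr7:23504780-23532041, minus strand) fell in replicate 1, with 99.3, 100.8 and 102 CPM there, against 114 to 124 CPM in the other 6 libraries, a log2 difference of −0.24 (SE 0.05, adjusted p = 0.00246) without overlap. HNRNPA0 had 327 ± 17.1 CPM in replicate 1 and 397 ± 45.6 CPM in the others, a difference of −0.27 (SE 0.05, adjusted p = 0.000946). HNRNPM, which binds GU-rich RNA, had 513 ± 20.5 CPM in replicate 1 and 601 ± 52.3 CPM in the others, a difference of −0.23 (SE 0.05, adjusted p = 0.00310), with overlap between the libraries. HNRNPA1P48 was at −0.31 (SE 0.08, adjusted p = 0.00795).

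SRSF8 (chr11:95067197-95071224, plus strand) showed the widest difference at the lowest level. It held 39, 34 and 30 counts in the replicate 1 libraries labelled siRNA1, siRNA2 and NTC, and 3 to 12 counts in the other 6. In CPM this was 0.455 ± 0.0357 in replicate 1 and 0.0832 ± 0.0322 in the others, a log2 difference of 2.47 (SE 0.28, adjusted p = 1.46e-06). The gene passed the filter on low counts through its replicate 1 libraries, so it had to differ there, and its call is no support for the list. Without NTC replicate 1, 4 of 52 passed in place of 10, and without the label term 5 did. Calls over all genes varied too, from 2023 to 4529 with 1 library left out, against 3958 with all libraries. The median of the 52 was 0.01 with TMM scaling and −0.02 with library size alone.

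Replicate 2 differed from replicate 3 in 7 of 52 genes (13.5%), against 20.6% of all genes; 6 were higher and 1 lower, against 9.91% and 10.7%. The libraries did not overlap for 11 higher genes (21.2%, against 13.1% of all genes) and 1 lower gene (1.92%, against 13.3%). Higher in replicate 2 were SF3A3 at 0.21 (adjusted p = 0.0378) and SF3B2 at 0.19 (0.0456), both U2 snRNP subunits; HNRNPC at 0.25 (0.0137), which binds uridine tracts; HNRNPAB at 0.21 (0.0308), HNRNPM at 0.17 (0.0431) and SF1 at 0.18 (0.0493), all as log2 differences. HNRNPLL was lower, with 55.5, 61.9 and 66.3 CPM in the siRNA1, siRNA2 and NTC libraries of replicate 2, against 67.7, 86.8 and 80.7 CPM in those of replicate 3 (log2 difference −0.35, SE 0.07, adjusted p = 0.000694). With TMM scaling all 9 SF3A and SF3B genes lay above 0, with a median of 0.15, where 51.8% of all genes lay below 0. With library size alone SF3B1 was at −0.0067.

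These calls depended on single libraries and on scaling. Of the 9 fits that left out a library, the one without NTC replicate 2 gave 11 calls, those without siRNA1 replicate 2, siRNA2 replicate 2 or siRNA2 replicate 3 gave 1 each, that without siRNA1 replicate 1 gave 2, that without siRNA1 replicate 3 gave 3, and the other 3 gave 4 each. Calls over all genes varied too, from 1952 to 4352 in these 9 fits, against 3825 with all libraries. With library size alone 3 of the 52 passed and their median moved to −0.01 (0.04 with TMM). Without the label term 0 of the 52 passed, and fewer of all genes passed as well (given below). Of the most studied members none passed between replicate numbers: SRSF1, SRSF2, SRSF3, HNRNPA1, HNRNPK, SF3B1, U2AF1 and PTBP1 were at 0.01, 0.00, −0.07, −0.04, −0.10, 0.09, 0.01 and 0.08 in replicate 1 and at −0.03, −0.11, −0.06, 0.11, 0.12, 0.04, 0.09 and 0.115 in replicate 2 against replicate 3.

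**Figure D5:**
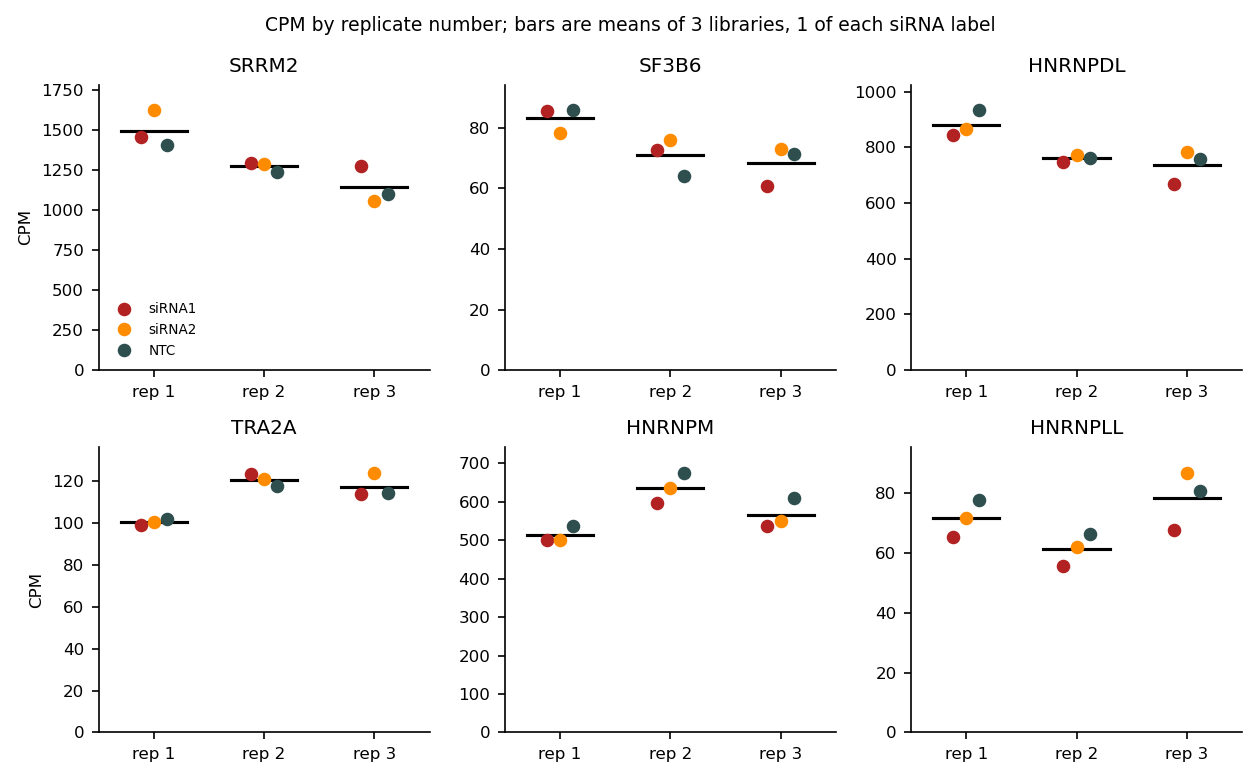
CPM of 6 genes that passed a comparison of replicate numbers, by replicate 1, 2 and 3, with the siRNA label as colour and horizontal bars for the mean of 3 libraries. SRRM2 lies at 1407 CPM or more in replicate 1 and at 1298 CPM or less elsewhere, and TRA2A at 102 CPM or less in replicate 1 and 114 CPM or more elsewhere.

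The other genes of the splicing pathway were followed through 11 lists with 162 genes, of which 160 were tested. In siRNA1 libraries 2 of 160 fell relative to NTC (1.25%, against 0.814% of all genes) and 0 rose (against 0.469%). In either direction 1.28% of all genes passed, and the median log2 difference of the 160 was −0.05. SRPK2, a kinase that phosphorylates the arginine and serine domains of SR proteins, had 121 ± 11.8 CPM in siRNA1 libraries and 180.2 ± 21.7 CPM in NTC libraries (SD, n = 3 each; log2 −0.57, SE 0.12, adjusted p = 0.0431). QKI, a regulator that binds ACUAA elements, had 116 ± 5.87 CPM in siRNA1 libraries and 155 ± 5.02 CPM in NTC libraries (−0.42, SE 0.08, adjusted p = 0.0232).

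With the block 12 of the 160 passed (7.5%), against 11.4% of all genes in either direction in that fit. Of the 12, 11 were lower in siRNA1 libraries, where 5.93% of all genes were lower. The remaining 1, SMG6 of nonsense-mediated decay, was higher at 0.20, where 5.48% of all genes were higher. The lower ones were SRPK2 and QKI; the PTBP1 relative PTBP3 at −0.33; LSM7 and SNRPE of the Sm and LSm rings at −0.32 and −0.30; SNRNP27 and USP39 of the tri-snRNP at −0.30 and −0.21; CASC3 and EIF4A3 of the exon junction complex at −0.27 and −0.21; and PRMT5 and GEMIN4, which assemble snRNPs, at −0.36 and −0.25. By list, all 10 U2 snRNP proteins outside SF3A and SF3B, all 16 tri-snRNP proteins and all 5 exon junction genes lay below 0, as did 13 of 14 snRNP assembly factors and 11 of 14 Sm and LSm proteins. The 24 Prp19 and late spliceosome genes were split, with 12 below 0, as were the 8 U12-type genes with 4 and the 10 decay factors with 5. In the largest list, other splicing regulators, 23 of 43 lay below 0. The U1 snRNP proteins had 6 of 8 below 0, and the list of SR protein kinases had 5 of 8. Of all genes tested 48.6% lay below 0.

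In siRNA2 libraries 0 of the 160 passed against NTC in edgeR without the block, and with it MBNL3, a muscleblind regulator, was higher by 0.42 (adjusted p = 0.0321). Between the siRNA labels QKI and PTBP3 were lower in siRNA1 libraries, with log2 differences of −0.49 (adjusted p = 0.0123) and −0.46 (adjusted p = 0.0179). They made up 1.25% of the 160, against 0.738% of all genes lower and 1.08% in either direction. With the block 10 of the 160 passed, all lower in siRNA1 libraries (6.25%, against 5.27% of all genes lower and 10.6% in either direction). Beside QKI and PTBP3 these were the SR protein kinases SRPK2 (log2 difference −0.52) and SRPK1 (−0.20), and the tri-snRNP proteins SNRNP27 (−0.43) and USP39 (−0.21). The others were PRMT5 (−0.37), CASC3 of the exon junction complex (−0.28), the U2-associated RBM17 (−0.20) and SYNCRIP, a relative of HNRNPR (−0.21). Replicate 1 differed from the others in 29 of these genes, 20 higher and 9 lower (18.1%, against 21.3% of all genes), and replicate 2 from replicate 3 in 22, 19 higher and 3 lower (13.8%, against 20.6%).

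An earlier search of these libraries had picked the 7-base word GCAGTAC in 3′ UTRs of genes lower in siRNA1 libraries, so its relation to that comparison is no independent evidence. Among 49 of the tested splicing genes with a 3′ UTR, 2 held it on the transcript strand (4.08%), against 534 of 12195 protein-coding genes tested that have one (4.38%). Both sites are shown, with the word in capitals, because they are the only ones in the list, and lie at chr2:197391155-197391183 and chr9:83968567-83968595 on the minus strand of GRCh38:

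SF3B1: caagcattaagGCAGTACtacacttaatt

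HNRNPK: taaggtggggaGCAGTACtacaagttgag

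SF3B1 was at −0.01 and HNRNPK at −0.10 in siRNA1 libraries relative to NTC. The median log2 difference between siRNA1 and NTC libraries was −0.12 over all genes with the word and −0.01 over those without it, and the 47 splicing genes without the word had a median of −0.08. Over all genes the median 3′ UTR was 3258 bases with the word and 956 bases without it. The part of this length in the difference was not tested.

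Promoters from 250 bases before to 50 after the start were taken from RefSeq (GRCh38.p14) for 47 of the 52 tested genes. On either strand, CCGGAAG, the core of ETS sites, was in 25.5% of them, against 19.2% of 10451 promoters of tested genes and 10.7% of all 27305. The GC box GGGCGG was in 70.2%, against 67.5% and 44.6%; CCAAT was in 44.7%, against 36.7% and 35.7%; TATAAA was in 10.6%, against 5.69% and 11.95%. The median GC content was 65%, against 64.7% and 58.3%. These matches describe letters in the window and are not sites of binding.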

How the data were processed

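Gene counts were deposited for each library by the authors as tables with unstranded and strand-specific columns, of which the unstranded column was analysed since library preparation was unstranded, per the labels' protocols. Per the submitters' processing notes the files use GRCh38; the aligner was not given in the sources used here. Genes were named with GENCODE release 29. The members and lists were chosen with earlier results of these data known, and other genes were named by rule: those past the test, the 3 largest differences each way, and 8 fixed members.

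Tests used edgeR 4.0.16 (quasi-likelihood, TMM factors 0.975 to 1.04, at least 10 counts by filterByExpr, prior count 2) in R 4.3.3, with Benjamini-Hochberg adjustment over 18554 genes. Label comparisons were fitted over all 9 libraries; comparisons of replicate numbers had the label as a term. SE was the log2 fold change over the root of F. Deviations of libraries with the same replicate number correlated at 0.383 to 0.623, those of other pairs at −0.445 to 0.0693, so the numbers were taken to pair libraries and blocked values are given where they change a call. TPM was computed over merged exons. Alternatives included DESeq2 1.42.0 and limma-voom (limma 3.58.1). The scripts were tested on simulated data.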

Additional observations from a re-analysis of the deposited data

How the results depend on the processing

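With the replicate block 4, 1 and 3 of the 52 splicing genes passed in siRNA1 vs NTC, siRNA2 vs NTC and siRNA1 vs siRNA2, and 2117, 28 and 1958 of all genes did. The block combined with RLE factors gave the same 4, 1 and 3 (2172, 38 and 1987 of all genes), and the block with library size alone also gave 4, 1 and 3 (2024, 25 and 1876). The block without the 3 replicate 1 libraries gave 2, 2 and 1 (1139, 93 and 1015 of all genes): HNRNPA0 and HNRNPR, HNRNPR and U2AF2, and U2AF2. These 3 combined settings and the blocked fits that leave out a library were chosen after seeing the data. DESeq2 called 1 splicing gene in each label comparison and 553, 4 and 522 of all genes, and omitting the filter gave 590, 15 and 557 of all genes and 1 splicing gene in siRNA2 vs NTC. In siRNA1 vs siRNA2 a filter of 1 CPM in 3 libraries gave 1 splicing gene, and a fit of only the 2 groups compared gave 117 of all genes. Without the replicate 1 libraries and without the block, 75 and 33 of all genes passed in siRNA1 vs NTC and siRNA1 vs siRNA2. With all 9 libraries, the block changed the calls of HNRNPUL1, SF3B3, HNRNPA0, HNRNPLL and U2AF2 among the splicing genes. With libraries left out other calls also changed with the block. HNRNPR passed as given above. In siRNA1 vs NTC, HNRNPM and U2AF2 passed without siRNA2 replicate 3 (adjusted p = 0.0381 and 0.024). In siRNA1 vs siRNA2, SF3B3 passed without NTC replicate 2 and without siRNA2 replicate 3 (adjusted p = 0.0390 and 0.0478).

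Without the label term the comparison of replicate 1 gave 5 splicing genes and 1634 of all genes, and that of replicates 2 and 3 gave 0 and 1175; library size alone gave 3 between replicates 2 and 3. Leaving out 1 library, with or without the block, gave 0 to 6, 0 to 2 and 0 to 4 splicing genes in the 3 label comparisons and 103 to 2979, 0 to 108 and 72 to 2387 of all genes. In replicate 1 vs replicates 2 and 3 it gave 4 to 11 (2023 to 4529 of all genes), and in replicate 2 vs replicate 3 it gave 1 to 11 (1952 to 4352).

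Under changes of processing and without the replicate 1 libraries, signs turned in genes that did not pass and lay near 0. With 1 library left out they also turned in SRSF8, HNRNPCL1 and HNRNPUL2-BSCL2, which have low counts and lay further from 0. The causes were not tested. In log2 terms without the replicate 1 libraries, siRNA2 vs NTC became 0.016 for HNRNPLL (0.0045 with the block) and 0.0200 for SF3B1 (0.0203 with the block). In siRNA1 vs siRNA2 it became −0.0056 for HNRNPA1 (−0.0055 with the block), −0.0067 for HNRNPF (−0.0066 with the block) and −0.048 for SF3B1 (−0.049 with the block). SF3B1 there was −0.00366 with RLE factors, −0.00367 in DESeq2, −1.2e-05 in the fit of 2 groups and −0.0068 with RLE factors and the block. SRSF3 there was 0.0012 with the block, 0.00099 with library size alone, 0.0066 without a filter, 0.0011 with the CPM filter, 0.0016 in limma-voom and 0.0051 with library size and the block. SRSF9 there was −0.037 with the sum of strand columns. With library size alone SF3B1 was 0.00032 in siRNA1 vs NTC and −0.0067 in replicate 2 vs replicate 3. In the comparison of replicate 1, library size alone gave −0.014 for SRSF1, −0.025 for SRSF2 and −0.018 for U2AF1, the sum of strand columns gave −0.0065 for SRSF1, and the CPM filter gave −0.00048 for SRSF2.

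Leaving out 1 library turned the sign of some log2 fold changes. In siRNA1 vs NTC the ranges were −0.33 to 0.66 for HNRNPUL2-BSCL2, −0.084 to 0.0036 for PTBP1 and −0.068 to 0.034 for SF3B1. In siRNA2 vs NTC they were −0.075 to 0.026 for HNRNPK, −0.16 to 0.082 for HNRNPLL, −0.39 to 0.72 for HNRNPUL2-BSCL2, −0.099 to 0.013 for PTBP1, −0.056 to 0.026 for SF3B1, −0.13 to 0.012 for SRSF2 and −0.039 to 0.056 for SRSF5. In siRNA1 vs siRNA2 they were −0.0047 to 0.077 for HNRNPA1, −0.049 to 0.56 for HNRNPCL1, −0.0096 to 0.072 for HNRNPF, −0.12 to 0.050 for HNRNPM, −0.15 to 0.072 for HNRNPR, −0.060 to 0.053 for PTBP1, −0.049 to 0.052 for SF3B1, −0.092 to 0.039 for SRSF2, −0.047 to 0.061 for SRSF3, −1.69 to 0.87 for SRSF8 and −0.023 to 0.077 for SRSF9. In replicate 1 vs replicates 2 and 3 they were −0.039 to 0.068 for SRSF1, −0.043 to 0.042 for SRSF2 and −0.043 to 0.076 for U2AF1, and in replicate 2 vs replicate 3 they were −0.070 to 0.017 for SRSF1 and −0.038 to 0.21 for U2AF1. Low counts limit SRSF8, SRSF12 and the HNRNPCL genes, and shared sequence limits U2AF1. Low counts and exon bases shared with HNRNPUL2 and BSCL2 both limit HNRNPUL2-BSCL2.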
